A study of Mus musculus with 12 samples.

Results

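The genes described here encode the subunits of the proteasome, its regulators and its assembly factors. They were chosen as the protein-coding genes of the RefSeq annotation of mouse GRCm38 whose symbol begins with Psma, Psmb, Psmc, Psmd, Psme, Psmf or Psmg followed by a digit. This gave 51 members of 21900 protein-coding genes on placed chromosomes: 19 of the core particle (8 alpha and 11 beta), 20 with Psmc or Psmd symbols, 6 other regulators (Psme and Psmf) and 4 assembly chaperones (Psmg). The symbol rule also took Psmc3ip and Psme3ip1, which are named for interacting proteins and are not subunits, and both were counted apart. A member counted as having a peak when the summit of a deposited peak lay within its gene span, and 13 of the 51 did in at least 1 library.

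The study pulled down RNA carrying N1-methyladenosine (m1A), a methylated form of adenosine, from the caudate putamen of adult male Tet1 fl/fl mice, and asked at which transcripts TET1 modulates this mark. The control group (genotype label Tet1 fl/fl) received AAV-EGFP, and the knockout group, called KO here (genotype label Tet1 delta/delta), received AAV-Cre-EGFP. Both groups thus carried floxed alleles, an injected virus and EGFP, and tissue was taken 2 weeks after injection. Each genotype had 3 pull-downs, each with its own input, which makes 12 samples, and the inputs entered only through peak calling. The promoter that drives Cre, the share of cells reached by the virus and whether each numbered library came from its own animals are not given in the labels. Any spread between libraries may therefore be technical.

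The proteasome degrades proteins tagged with ubiquitin. Its barrel-shaped core particle is built of rings of alpha subunits, which gate the entry, and rings of beta subunits, some of which cut the substrate. The 19S regulatory particle caps the barrel: its base holds a ring of ATPases (Psmc) that unfold substrates, and its lid, built of Psmd subunits, removes the ubiquitin chains. Alternative caps are formed by the PA28 proteins (Psme1 to Psme3) and by Psme4. Neurons depend on the proteasome for the turnover of synaptic proteins.

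The caller used between 459332 (control 1) and 2508102 (KO 2) pull-down tags. Each KO pull-down, from 1235247 tags upward, was deeper than each control pull-down, of which control 2 was the deepest at 1097292. Control 1 stood apart. It was called with duplicate tags kept, and 72.4% of its peaks had the minimum length, that of the modelled fragment, compared with 11.8% to 16.0% elsewhere. Of 14 medium spiny neuron markers, the tissue's defining cell type, 11 had a peak, among them Ppp1r1b, Adcy5, Drd2 and Penk, while Drd1, Tac1 and Pdyn had none. Markers of other cell types with a peak were 5 of 7 for oligodendrocytes, 3 of 8 for astrocytes, 3 of 10 for microglia and 2 of 5 for endothelium, beside 26.2% of all protein-coding genes. A missing peak means that no enrichment was called at that depth, not that the transcript lacked m1A, and in bulk tissue fewer cells of a type cannot be told apart from less RNA per cell.

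In 4 members, peaks close to an annotated start site recurred between libraries, and their start regions are shown here as the sequence beside which these peaks lie. They are Psme4, which encodes a large ATP-independent activator cap, Psme3, a nuclear PA28 activator, Psmd12, a lid subunit, and Psmd2, the base subunit at which ubiquitin receptors dock. Each line runs from 250 bases before the annotated start through the first 30 transcribed bases, on the + strand of GRCm38.p6, from RefSeq. Capitals mark matches, on either strand, to the antioxidant response element TGACNNNGC, to the CCAAT box CCAAT, and to the ETS motif CCGGAAG.
Psme4, chr11:30771525-30771804: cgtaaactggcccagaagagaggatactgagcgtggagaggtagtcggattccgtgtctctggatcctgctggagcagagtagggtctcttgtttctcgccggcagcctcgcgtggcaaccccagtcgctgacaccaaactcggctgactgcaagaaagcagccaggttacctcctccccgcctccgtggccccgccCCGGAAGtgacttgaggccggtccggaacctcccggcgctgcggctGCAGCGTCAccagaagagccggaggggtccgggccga
Psme3, chr11:101315963-101316242: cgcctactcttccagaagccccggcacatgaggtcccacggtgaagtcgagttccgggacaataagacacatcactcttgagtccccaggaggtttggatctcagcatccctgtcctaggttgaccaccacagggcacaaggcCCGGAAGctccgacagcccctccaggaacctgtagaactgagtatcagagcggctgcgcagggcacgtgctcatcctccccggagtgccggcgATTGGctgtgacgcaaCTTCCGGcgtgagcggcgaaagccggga
Psmd12, chr11:107479278-107479557: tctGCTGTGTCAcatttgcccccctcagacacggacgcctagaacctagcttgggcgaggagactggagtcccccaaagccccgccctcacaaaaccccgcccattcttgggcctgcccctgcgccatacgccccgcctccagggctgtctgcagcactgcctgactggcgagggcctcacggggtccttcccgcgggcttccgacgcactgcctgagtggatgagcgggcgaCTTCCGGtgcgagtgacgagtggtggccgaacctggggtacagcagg
Psmd2, chr16:20651402-20651681: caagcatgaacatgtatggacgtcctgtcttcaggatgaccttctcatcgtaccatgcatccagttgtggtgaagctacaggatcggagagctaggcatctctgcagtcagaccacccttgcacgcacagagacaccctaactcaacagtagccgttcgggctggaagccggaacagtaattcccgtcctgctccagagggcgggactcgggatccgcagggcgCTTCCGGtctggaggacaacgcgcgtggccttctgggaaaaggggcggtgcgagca

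The antioxidant response element is the site bound by NFE2L1, the factor that raises proteasome gene expression when proteasome activity falls. It matched in the windows of Psme4 and Psmd12. Among the 43 members with a start window of 300 bases (250 before and 50 after the start), 6 held it (14.0%), against 14.8% of the 17492 protein-coding genes with such a window. The CCAAT box matched in 16 of the 43 (37.2%) and in 42.3% of protein-coding genes. The ETS motif was added after the 4 sequences had been read, since each of them contains it. It was found in 16 of the 43 members (37.2%), against 12.9% of protein-coding genes, and these 16 include the 4 genes for which it was chosen. G and C made up a median of 59.0% of the members' windows and 57.3% of those of protein-coding genes. Psmd3, Psmd7 and Psmb1 had peaks without a start window.

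Proteasome genes had peaks about as often as other genes. The 13 members with a peak in any library are 25.5% of the 51, beside 26.2% of protein-coding genes. Recurrent calls were also near the background: 6 members (11.8%) had a peak in 3 or more libraries, against 10.1% of protein-coding genes, and 1 member, Psmd3, had one in all 6, where the background is 2.3%. Another 7 members were called in exactly 1 library (13.7%, beside 11.2%). The 37 member peaks had fold enrichments over the local background of 3.92 to 17.4, with a median of 7.15. These values are the authors' own for each peak and are used here to describe peaks, not to test genotypes.

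Among the members, those of middle length held most of the peaks. Members were shorter than other genes, with a median span of 11.6 kb against 17.1 kb for protein-coding genes, and long genes can hold more summits. None of the 13 members shorter than 5.76 kb had a peak, while 9.69% of protein-coding genes below that length did. From 5.76 to 22.2 kb, 11 of 25 members had one, against 19.8%. Of the 13 longer members 2 had one, Psmb1 and Psme4, against 40.7%. These bounds are quartiles of the members' own spans, set after the calls were known.

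More proteasome genes were called in each KO library than in each control library. Controls 1, 2 and 3 had peaks in 3, 4 and 4 members, and KO 1, 2 and 3 in 6 each, which gives 3.67 ± 0.577 (SD, n = 3) for control and 6 ± 0 (SD, n = 3) for KO, a difference of 2.33. The groups did not overlap, although the KO libraries were not alike in which members they held. As a share of the 51 members the libraries reached 5.88%, 7.84% and 7.84% in control and 11.8% in each KO library. Protein-coding genes as a whole were at 9.89%, 10.5% and 9.38% in controls 1, 2 and 3 and at 11.1%, 14.8% and 9.41% in KO 1, 2 and 3. The members thus lay below the background in all 3 controls and in KO 2, and above it in KO 1 and KO 3. These gaps are small in genes. At the background share, 51 genes would give 5.05, 5.37 and 4.78 in controls 1, 2 and 3 and 5.68, 7.54 and 4.80 in KO 1, 2 and 3. No p is given, because the members were chosen with earlier results of these data known, and 3 libraries against 3 could not have gone below 0.1 in an exact permutation test.

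The order of depth is the same as the order of genotypes, so depth and genotype cannot be told apart in these counts. Per 1000 protein-coding genes with a peak, members numbered 1.38, 1.73 and 1.95 in controls 1 to 3 and 2.46, 1.85 and 2.91 in KO 1 to 3, where KO 2 fell below control 3 and the groups overlapped. With all lists cut to the length of the shortest (the 3004 best peaks by q-value) the difference fell to 1.00, from means of 3.67 and 4.67.

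**Figure D1:**
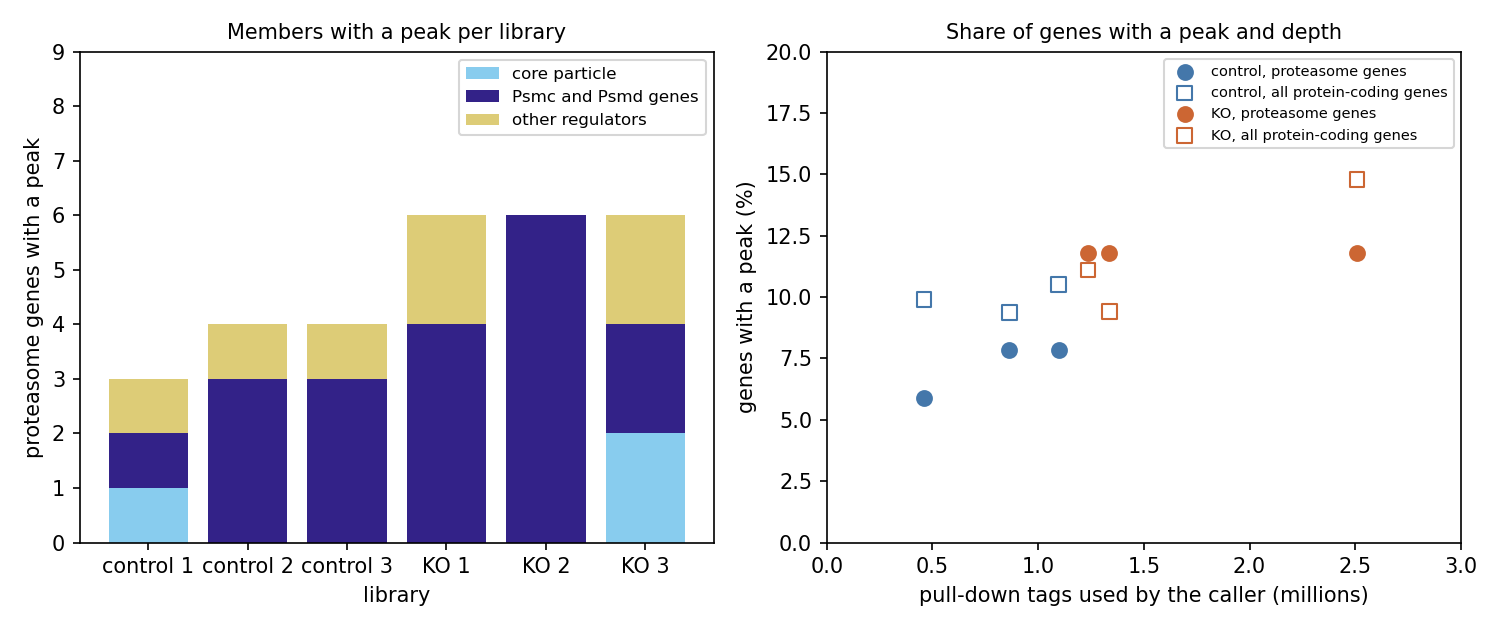
Left, number of proteasome genes with a peak in each library, stacked by particle; right, share of the 51 proteasome genes (filled circles) and of all protein-coding genes (open squares) with a peak against the pull-down tags used by the caller, 1 point per library. The 3 KO libraries hold 6 members each and the controls 3 or 4, and each KO library lies to the right of each control library.

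By genotype, 12 members (23.5%) had a peak in some KO library, beside 20.6% of protein-coding genes, and 7 (13.7%) in some control library, beside 17.7%. Both genotypes shared 6 members (11.8%, beside 12.1%): Psmd3, Psmd7, Psmd12, Psmd2, Psme3 and Psme4. Called in KO libraries alone were 6 members (11.8%), against a background of 8.5%, and in control libraries alone 1 (1.96%), against 5.68%. None of the 6 was called in more than 1 KO library: Psmc1, Psmc5, Psmd9 and Psmd13 came from KO 2, the deepest, and Psma4 and Psmb1 from KO 3. Without KO 2 the number called in KO alone was 2, and with lists of equal length it was 3. No member had the full pattern of a genotype, with a peak in its 3 libraries and nowhere else. Over protein-coding genes that pattern was found for KO in 0.457% and for control in 0.215%.

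**Figure D2:**
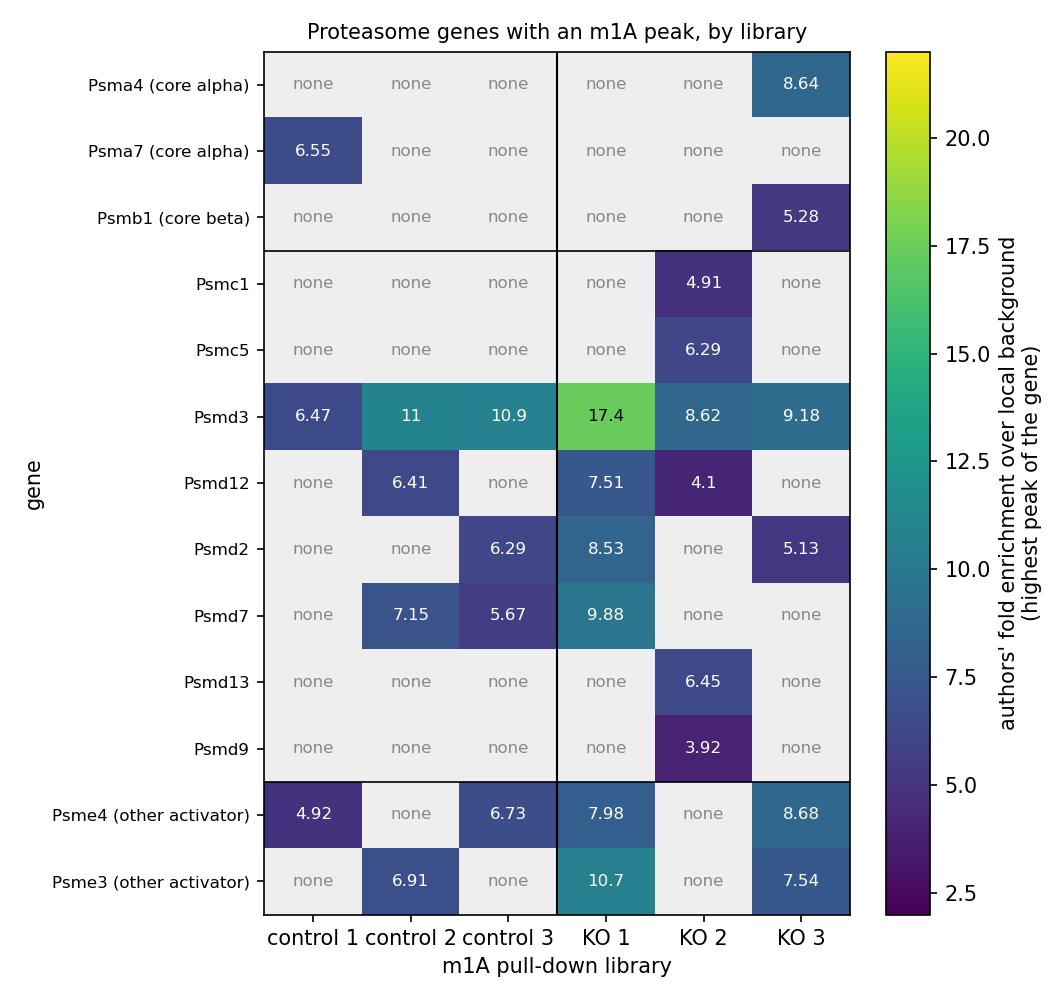
Fold enrichment of the highest peak in each of the 13 proteasome genes with a peak, by library, with controls left and KO right of the vertical line; grey cells marked none had no called peak, and horizontal lines part the core particle, the Psmc and Psmd genes and the other regulators. Psmd3 fills its whole row, 5 further genes are called in 3 or 4 libraries across both genotypes, and the remaining 7 in 1 library each.

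Genes with Psmc and Psmd symbols, most of which encode subunits of the 19S regulatory particle, made up 8 of the 13 with a peak. These 8 are 40.0% of 20, beside 3 of 19 in the core particle (15.8%), 2 of 6 other regulators (33.3%) and 26.2% of protein-coding genes. The difference between particles was not tested. Without Psmd5, Psmd9 and Psmd10, which are assembly chaperones of the base and not subunits, 7 of 17 had a peak (41.2%). Of all 20 Psmc and Psmd genes, 8 were called in some KO library (40.0%), where the background is 20.6%. In some control library 4 of the 20 were called, where the background is 17.7%. By library the Psmc and Psmd genes numbered 1, 3 and 3 with a peak in controls 1 to 3 and 4, 6 and 2 in KO 1 to 3, so KO 3 fell within the control range. The core particle had 1, 0 and 0 in control and 0, 0 and 2 in KO. Median spans were 13.3 kb for the Psmc and Psmd genes and 10.1 kb for the core genes. Within the core they were 17.7 kb for alpha genes, 2 of 8 with a peak, and 4.25 kb for beta genes, 1 of 11 with a peak. No member of any particle shorter than 5.76 kb had a peak, and the particles were not compared at equal span. The count of Psmc and Psmd genes with a peak fell to 4 without KO 2 and to 5 with lists of equal length.

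Psmd3 encodes a scaffold subunit of the lid, and its span covers chromosome 11 from 98682554 to 98695978. It was the member with the strongest peaks, and they lay at both ends of the gene. The region near the upper end, 98695565 to 98695904, was called in all 6 libraries. Its fold enrichments were 6.47, 11.0 and 10.9 in controls 1, 2 and 3 and 9.03, 7.30 and 7.71 in KO 1, 2 and 3, so the genotypes overlapped. The summits fell within 67 bp of each other, 271 to 338 bp inside the end of the span.

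The second Psmd3 region, from 98682602 to 98682966, lay 181 to 201 bp inside the lower end of the span and was called in 5 libraries, all but control 1. Fold enrichment was 7.67 and 9.32 in controls 2 and 3 and 17.4, 8.62 and 9.18 in KO 1, 2 and 3. KO 1 was high, and the other KO values lay between both controls. The 5 summits spanned 20 bp. In KO 1 this peak ranked 52 of 3782 by q-value, the highest rank of any member peak.

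Psmd7 encodes the lid subunit that pairs with the deubiquitinase Psmd14, itself without a peak. Its single region, on chromosome 8 from 107588186 to 107588377, was called in controls 2 and 3 with fold enrichments of 7.15 and 5.67 and in KO 1 with 9.88. KO 2 and KO 3, both deeper than either of these controls, had no call there. The summits lay 183 to 204 bp inside the upper end of the gene span (107580380 to 107588482) and within 21 bp of each other.

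Psmd12 had its recurrent region on chromosome 11 from 107479603 to 107479906, with summits 120 to 158 bp after the start site, directly downstream of the sequence shown. Fold enrichment was 6.41 in control 2, 7.51 in KO 1 and 4.10 in KO 2, and the other 3 libraries had no peak there. The KO 2 peak was near the caller's limit, with a −log10 q of 3.00. KO 1 had a second peak 6184 bp after the start with a fold enrichment of 6.45.

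Psmd2 had 2 regions on chromosome 16. The first, from 20651739 to 20651975, had its summits 199 and 201 bp after the start site shown and was called in control 3 (6.29-fold enriched) and KO 1 (8.53). The second, from 20652534 to 20652756, lay 985 to 999 bp after that start and was called in KO 1 and KO 3 with nearly equal fold enrichments of 5.20 and 5.13. Controls 1 and 2 and KO 2 had no peak in the gene.

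KO 2 alone held the remaining 4 Psmc and Psmd calls. Psmc1, an ATPase of the base, had a peak 234 bp after its start with a fold enrichment of 4.91, and Psmc5, another ATPase, had one of 6.29 within 372 bp of the upper end of its span. Psmd13, a lid subunit, had a peak of 6.45 at 9028 bp after the start, where the gene overlaps Gm15542, so its source is uncertain. Psmd9, a chaperone of base assembly, had the weakest peak of any member, 3.92, at 18766 bp after the start. KO 2 had the longest list, with 6947 peaks, and 5.50% of them had a lower fold enrichment than that of Psmd9.

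Core particle genes had isolated calls, each in a single library. Psma4, an alpha subunit, had a peak in KO 3 (8.64-fold enriched) 161 bp after its start. Psma7, another alpha subunit, had one in control 1 (6.55) 214 bp after its start, with a length of 170 bp that equals the modelled fragment of that library. Psmb1, a beta subunit without catalytic activity, had 2 peaks in KO 3 (4.90 and 5.28) that lay 9026 bp or more from either end of its span. The catalytic subunits Psmb5, Psmb6 and Psmb7 had no peak. Nor did their interferon-induced counterparts Psmb8, Psmb9 and Psmb10, which form the immunoproteasome. The microglial markers Cx3cr1, C1qa and C1qc had peaks in the same tissue.

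Psme4 was called in 4 libraries, but not at 1 site. Its region on chromosome 11 from 30771960 to 30772223, 300 to 358 bp after the start, had fold enrichments of 6.73 in control 3, 7.98 in KO 1 and 8.68 in KO 3. The peak of control 1 (4.92) lay 5910 bp after the start and had the modelled fragment's length of 170 bp. Controls 1 and 2 and KO 2 thus had no call at the start.

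Psme3 differed between genotypes in where its peaks lay. KO 1 and KO 3 shared a region (chromosome 11, 101316317 to 101316528), 187 to 246 bp after the start, with fold enrichments of 10.7 and 7.54. Control 2 had its peak at 957 bp after the start (101317027 to 101317204), with a fold enrichment of 6.91. No peaks of the genotypes overlapped in this gene, and KO 2, controls 1 and 3 had none in it. With 2 libraries against 1, the difference has no test.

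Members without a peak in any library were, in the core, Psma1, Psma2, Psma3, Psma5, Psma6, Psma8, Psmb2, Psmb3, Psmb4, Psmb5, Psmb6, Psmb7, Psmb8, Psmb9, Psmb10 and Psmb11. Among the Psmc and Psmd genes they were Psmc2, Psmc3, Psmc4, Psmc6, Psmd1, Psmd4, Psmd5, Psmd6, Psmd8, Psmd10, Psmd11 and Psmd14. The PA28 genes Psme1, Psme2 and Psme2b, the inhibitor Psmf1, the chaperones Psmg1 to Psmg4, Psmc3ip and Psme3ip1 also had none. The 6 annotated proteasome pseudogenes had none either. Reads of processed pseudogenes and of near-identical copies such as Psme2 and Psme2b could still have been placed at either copy. KO 1 had a peak 427 bp outside the span of Psme3ip1, within the neighbouring gene Rspry1.

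Member peaks lay near the ends of their genes. Of 37 member peaks, 26 (70.3%) had a summit within 500 bp of an end of the span, against 24.0% of 20992 summits in spans of protein-coding genes. In genes of that middle range of spans (5.76 to 22.2 kb) the figures were 23 of 31 member peaks and 35.4% of summits in protein-coding genes, so the members' share was higher within this range of spans too. Where the start site was known, 13 of 21 member peaks (61.9%) lay within 500 bp of it, against 28.0% for protein-coding genes. From 5.76 to 22.2 kb this was 10 of 17 member peaks, against 38.6%. Psmd3 contributed 11 of the 26 end-proximal peaks, and peaks of 1 gene in several libraries are not independent. By library, member peaks near an end were 2 of 3, 4 of 5 and 4 of 5 in controls 1 to 3 and 6 of 9, 5 of 7 and 5 of 8 in KO 1 to 3. Summits in protein-coding genes were near an end in 15.2%, 32.6% and 34.5% in these controls and 26.5%, 13.6% and 32.1% in KO. Near a start they were 17.6%, 40.4% and 42.5%, and 32.4%, 12.0% and 39.3%. KO 2, low in both, gave 6086 of the 20992 pooled summits but 7 of the 37 member peaks, which lowers the pooled background.

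**Figure D3:**
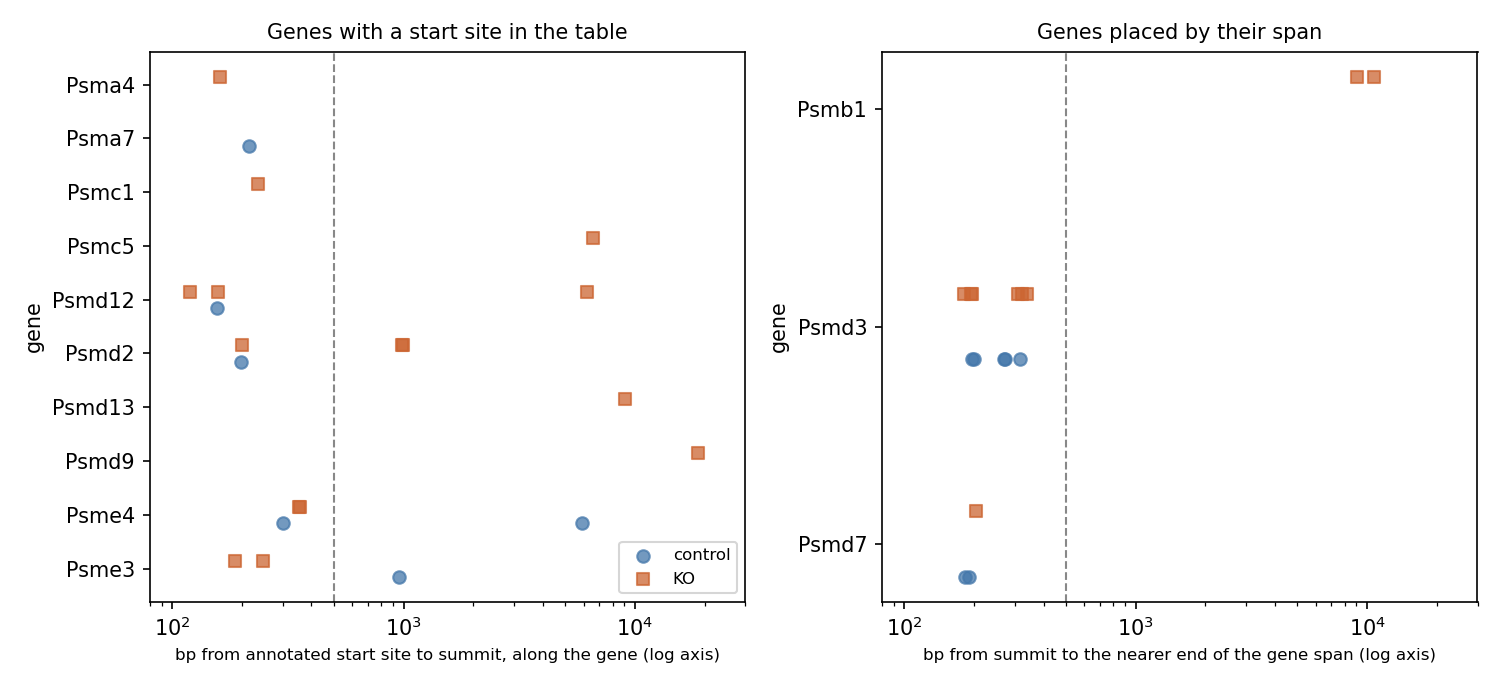
Distance in bp, on a log axis, of every member summit from the annotated start site (left, genes with a start site in the table) or from the nearer end of the gene span (right), with controls as circles and KO as squares; the dashed line is at 500 bp. Within 500 bp lie 27 of the 37 summits, and 8 of the 10 beyond 500 bp are from KO libraries, which hold 24 of all 37.

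At the level of sites, the 37 peaks merged into 19 regions (peaks sharing at least 1 bp). Of these 11 were called in 1 library, 3 in 2 and 5 in 3 or more, and the same split was not made over all protein-coding genes. Both genotypes shared 6 regions (31.6%), 10 were found solely in KO (52.6%) and 3 solely in control (15.8%). Over the 12085 regions merged in the same way in all protein-coding genes the shares were 21.5%, 50.3% and 28.1%, so the share found solely in KO was near the background. The 5 recurrent regions were both of Psmd3 and those of Psmd7, Psmd12 and Psme4 near a gene end, and each was called in both genotypes. For Psmd3 this follows from the count, since a region in more than 3 libraries must include both genotypes.

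Partners of the proteasome had peaks in both genotypes. Of 25 genes that deliver substrates, trim ubiquitin, control transcription or encode ubiquitin, 24 were found in the annotation and 13 of them had a peak (54.2%), beside 25.5% of the members and 26.2% of protein-coding genes. These shares were not compared at equal span. Partner spans ran from 2.04 kb (Ubb) to 121 kb (Ecpas), and 40.7% of protein-coding genes longer than 22.2 kb had a peak. Paaf1 was not matched and was not analysed here. Control libraries held 6, 7 and 7 of the 24 and KO libraries 5, 4 and 6, so the genotypes overlapped. In control libraries alone were 5 of the 24, where the background is 5.68%, and in KO libraries alone 2, where it is 8.5%. The 5 include Ube3c and Fbxo7, called in control 1 alone and near the caller's limit.

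The shuttle receptors, which carry ubiquitinated proteins to the proteasome, led this group. Ubqln4 had a peak in all 6 libraries, but not at 1 site. Its site 130 to 166 bp after the start had fold enrichments of 8.69 and 8.93 in controls 2 and 3 and 17.4, 21.7 and 9.03 in KO 1, 2 and 3. KO 1 and KO 2 were high and KO 3 was close to these controls. Control 1 had no call there, and its peak (6.96) lay 14481 bp after the start. A second recurring site, 1609 to 1669 bp after the start, was called in control 3 (8.50), KO 1 (10.2) and KO 2 (12.6). Rad23b, another shuttle, was called in 5 libraries, all but control 1, at a site 164 to 199 bp after its start. Fold enrichments at this site were 5.80 and 6.86 in controls 2 and 3 and 6.90, 5.22 and 6.70 in KO 1, 2 and 3. Ubqln1 and Ubqln2 were each called in controls 2 and 3 and in KO 3. In that order the fold enrichments were 5.88, 7.56 and 5.48 for Ubqln1 and 7.56, 10.5 and 9.87 for Ubqln2.

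Ubb, a gene of ubiquitin repeats, had wide calls with low enrichment. It was called in controls 2 and 3 at 2.76 and 3.08 and in KO 1, 2 and 3 at 3.20, 2.56 and 3.10, and control 1 had no peak in it. The genotypes overlapped, and the repeats can share reads.

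Ddi2, the protease that activates NFE2L1, had a peak in each control and in no KO library, with highest fold enrichments of 5.24, 8.88 and 5.50 in controls 1, 2 and 3. It is the partner gene called in all libraries of a genotype and none of the other, a pattern seen in 0.215% of protein-coding genes. The −log10 q was 3.99 and 2.45 for the peaks of control 1 and 4.65 in control 3, under the stricter limit of 5. Control 2 had 12.0, so the pattern does not hold at that limit. The controls did not share 1 site: the summits of controls 2 and 3 lay 265 and 228 bp after the start, while both peaks of control 1 lay 9893 and 5762 bp after it. Ecpas, a scaffold that binds the 26S proteasome, was called in KO 1 and KO 3 at 6.88 and 11.9, at a shared site before the listed start but inside the gene span, where no control had a call. Its peak in control 1 (3.71) lay elsewhere, 13438 bp after that start. Vcp, the unfoldase upstream of the proteasome, was called in controls 1 and 3. Nploc4 had a peak in control 2 alone, and Fbxo7 and Ube3c in control 1 alone with fold enrichments of 3.64 to 3.68. Akirin2 had one in KO 2 alone and Usp14 in KO 1 alone.

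**Figure D4:**
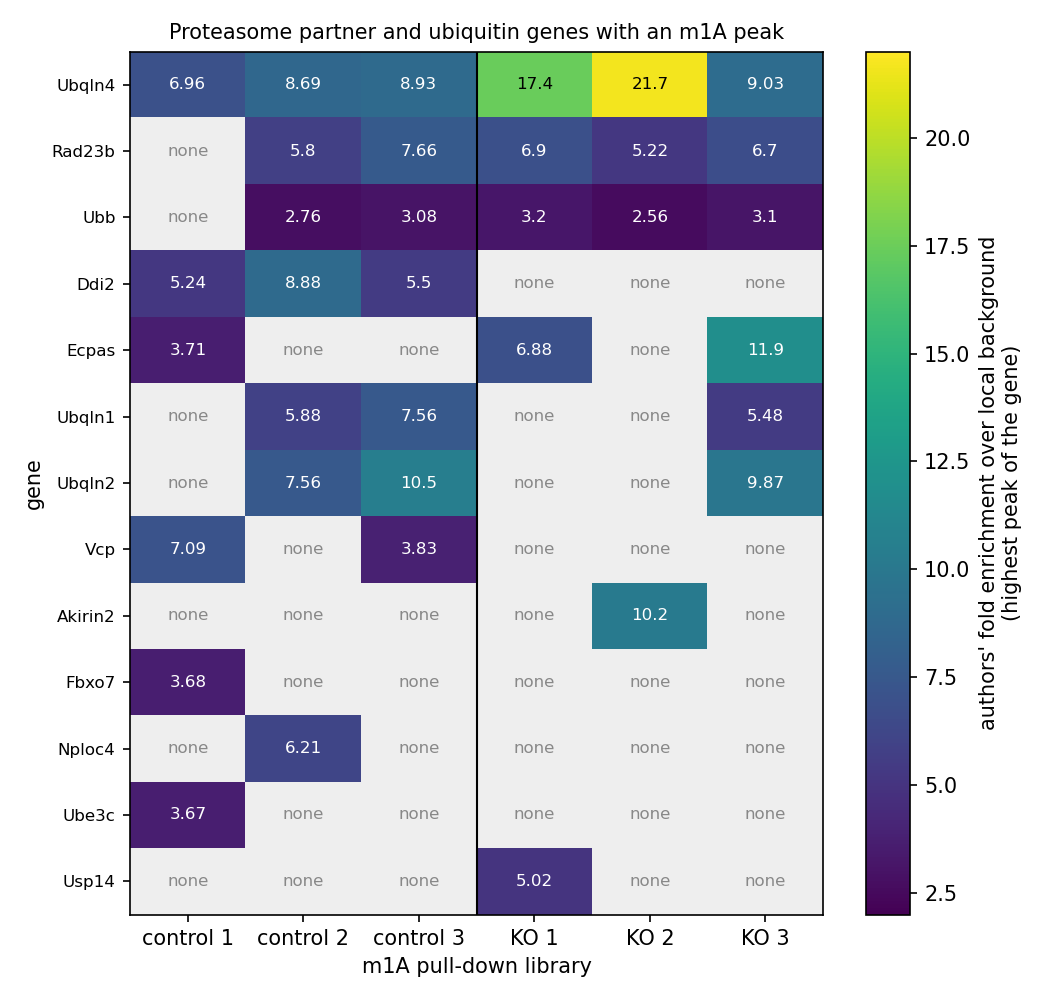
Fold enrichment of the highest peak in each of the 13 proteasome partner and ubiquitin genes with a peak, by library; grey cells marked none had no called peak. Ubqln4 is called in every library, Ddi2 in the 3 controls, and Ubb shows low fold enrichments in the 5 libraries that hold it.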

How the data were processed

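The data were 6 peak lists, each made by the authors from 1 m1A pull-down and its own input. The tools, per the submitters' processing notes, were MACS2 2.2.6, HISAT2 2.1.0 and cutadapt 2.8, with GRCm38 as the build. Per the file headers, the q-value limit was 0.01 and replicates were not pooled. Duplicate tags were all kept in control 1, and at most 1 tag per position was kept in the other lists. The deposited pileup is a coverage signal taken at each summit, the deposited fold enrichment is a ratio to the local background, and the deposited −log10 values belong to the p-value and q-value of each peak.

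Summits were placed in gene spans of RefSeq GRCm38.p6 with Python 3.11.15, pandas 2.3.3 and numpy 2.4.6, leaving out summits in more than 3 genes. The gene table gives neither exons nor strand. Strand and start sites came from the RefSeq start windows (build GRCm38.p6), which covered 43 members. The placing was tested on 200 simulated peaks. The members, lists and lengths were chosen with earlier results of these data known. Every member with a peak is named, and those called in 3 or more libraries, or in all 3 of a genotype, are given by library, as are partner genes called in 3 or more. The 25 partner genes are those that remain of a longer list, of which some genes are not reported here. Counts are compared with all protein-coding genes without a test. The lists hold no read counts, so no interval for counting error is given. The alternatives were stricter limits (−log10 q of 5, fold enrichment of 4), any overlap in place of the summit, summits in 1 gene alone, lists of equal length, and libraries left out.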

Additional observations from a re-analysis of the deposited data

How the results depend on the processing

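Of 96 values over 8 results and 12 alternatives, 83 stayed within 1.5 times the reported count, or within the SD between libraries for the difference in members per library, and 13 did not. None changed the sign of that difference. With the stricter q-value limit (−log10 q of 5) the difference in members per library was 1.67 instead of 2.33. With lists of equal length it was 1.00, members called in KO libraries alone numbered 3 instead of 6, and Psmc and Psmd genes with a peak 5 instead of 8. Without control 1 and KO 2, 8 members had a peak instead of 13, 2 were called in KO libraries alone, 0 in control libraries alone, and 4 Psmc and Psmd genes had one. Leaving out single libraries gave 9 to 13 members with a peak, a difference of 2 to 2.5 members per library, 2 (without KO 2) to 8 called in KO libraries alone and 0 (without control 1) to 2 (without KO 1) in control libraries alone. The core particle then had 1 (without KO 3) to 3 members with a peak, the Psmc and Psmd genes 4 (without KO 2) to 8, and the partner genes 11 to 13. Psmd3 was called in every library under all 12 alternatives. Fewer libraries and shorter lists lower counts by construction, and the cause of the other changes was not tested. No paired analysis was possible because the results come from counts of called peaks without a test, and the labels do not say that a library number is shared between genotypes. Depth, lowest in control 1, limits which peaks could be called.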
